A study of Mus musculus with 4 samples.

Results

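The genes described here build the autophagosome, the double membrane that encloses cytoplasm and delivers it to the lysosome. They are 10 of the 23756 genes in the table, chosen by name: Ulk1, Ulk2, Becn1, Wipi2, Atg7, Atg5, Atg16l1, Map1lc3b, Gabarapl1 and Sqstm1. RNA-seq was done on 32Dcl3-Abl1ko cells. The parental 32Dcl3 cells are murine hematopoietic cells whose growth depends on interleukin-3 (IL-3), and Abl1 was mutated in them with CRISPR/Cas9. There were 2 libraries from cells growing with IL-3 (Abl1ko/IL3+) and 2 from cells growing without it (Abl1ko/IL3-), and all 4 are labelled as Abl1 knockout. Per the study's methods the cells were selected with puromycin after lentiviral delivery of the guide and single clones were used. The study describes the Abl1ko/IL3- cells as IL-3-independent cells that arose when Abl1ko cells were starved of IL-3. The lack of IL-3 therefore cannot be told apart from the outgrowth of cells able to grow without it. The labels number the libraries 1 and 2 in each group without tying a number to a clone or a culture. Every p-value therefore treats these libraries as the replicates and does not speak for independent clones or cultures. No time point and no library from cells without the Abl1 mutation was analysed here.

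IL-3 supports nutrient uptake and activates PI3K-Akt-mTOR signaling, and mTORC1 holds the ULK1 kinase inactive while nutrients and growth factor are present. When that brake is released, ULK1 or ULK2 activates the Beclin 1-VPS34 lipid kinase, WIPI2 reads the lipid it makes, and 2 conjugation reactions that share the enzyme ATG7 attach LC3 and GABARAP proteins to the growing membrane. Much of this control works on proteins, by phosphorylation, conjugation and degradation, and RNA levels do not measure it.

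The libraries held 48953174 to 60382588 counts in genes. Abl1 RNA stood at 20.5 and 40.9 CPM (counts scaled to 1000000 a library, with TMM factors for library composition) in Abl1ko/IL3+ libraries and at 32.3 and 38.9 CPM in Abl1ko/IL3- libraries, and since small CRISPR mutations need not lower the RNA these levels do not check the knockout. The labels call the line a pre-B-cell, and its B-lineage markers were low but not all absent: Rag1 and Igll1, which developing B cells use to rearrange and display their receptor, were under 1 CPM in every library, Cd79b stood at 11.2 to 16.2 CPM, Cd79a at 0.67 to 11.7 CPM and Vpreb1 at 0.88 to 3.28 CPM. Immature myeloid markers (8 of 8 in the table) summed to 2801 and 2371 CPM with IL-3 and to 1603 and 942.9 CPM without it, with 2 of 8 lower in both Abl1ko/IL3- libraries, 0 higher in both, and Kit under 1 CPM throughout. Mpo was the largest part of these sums, at 1879 and 1477 CPM with IL-3 and 908.4 and 499.3 CPM without it. Maturing granulocyte markers summed to 804.4 and 294.3 CPM with IL-3 and to 944.6 and 5365 CPM without it, 5 of 8 were higher in both Abl1ko/IL3- libraries, and Csf3r was under 1 CPM throughout. Ngp, the largest part of these sums, overlapped between the groups, at 686.9 and 240.5 CPM with IL-3 and 609.8 and 4003 CPM without it. Erythroid markers summed to 398.6 and 7448 CPM with IL-3 and to 3629 and 1832 CPM without it. Hba-a1 alone stood at 117.3 and 6745 CPM with IL-3 and at 3316 and 1575 CPM without it. Only Gata1 of the 5 was apart between the groups, at 214.9 and 365.9 CPM with IL-3 and 168.4 and 150.7 CPM without it. The sums of macrophage markers (330.9 and 59.9 CPM with IL-3, 101.3 and 218.9 CPM without it) and of mast cell and basophil markers (748.3 and 115.5 CPM with IL-3, 163.9 and 239.6 CPM without it) were highest in Abl1ko/IL3+ replicate 1. Adgre1, Cd68, Cpa3, Gata2 and Fcer1a were highest there, but Mcpt8 (19.0 CPM) and Ms4a2 (1.85 CPM) were lowest there. Csf1r was highest in Abl1ko/IL3- replicate 2 (63.9 CPM). Libraries of one group thus differed in their marker RNA, and markers of one list did not all move together. The part of these differences in the autophagy values below was not tested, and a change in the share of a cell type cannot be told apart from a change in RNA per cell.

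None of the 10 autophagy genes passed the adjusted threshold of 0.05 without IL-3 (edgeR quasi-likelihood F test, two-sided, Benjamini-Hochberg adjustment over 16535 genes). The same test called 0% of all genes, at a lowest adjusted p of 0.335. Becn1 and Atg16l1 were higher in both Abl1ko/IL3- libraries than in either Abl1ko/IL3+ library. On TMM-scaled CPM, Ulk1, Atg7 and Gabarapl1 were lower in both and the other 5 overlapped between the groups. Scaled by library size only, Ulk1 and Gabarapl1 overlapped and Wipi2 was lower in both, and in the deposited FPKM, which are scaled by length and depth, Gabarapl1 overlapped and Wipi2 was lower in both, so only Becn1, Atg16l1 and Atg7 were apart on all 3 scales. At an unadjusted p under 0.05 edgeR gave 1 of the 10 genes, Atg7, against 5.91% of all genes tested, and DESeq2, which called 1.64% of all genes at an adjusted p under 0.05, called 0 of the 10.

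**Figure D1:**
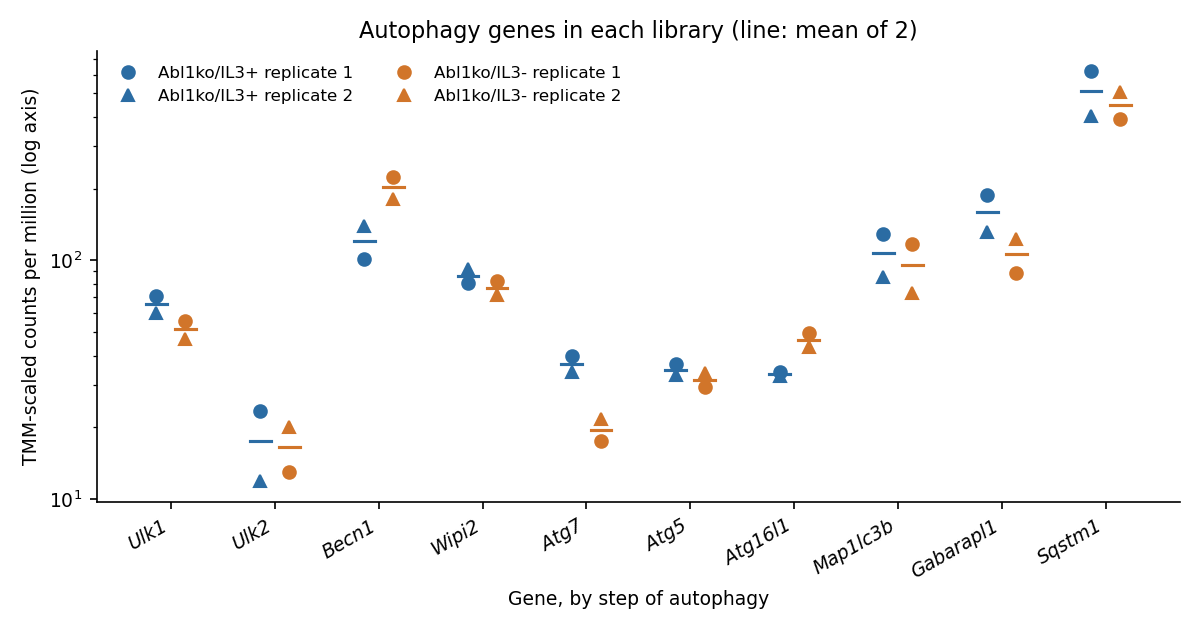
TMM-scaled CPM (log axis) of the 10 autophagy genes in each library, with Abl1ko/IL3+ in blue, Abl1ko/IL3- in orange, circles for replicate 1, triangles for replicate 2 and a line at each mean of 2. On this scale blue and orange points are apart for Ulk1, Becn1, Atg7, Atg16l1 and Gabarapl1 and interleave for the other 5 genes. With library size only Ulk1 and Gabarapl1 overlap and Wipi2 is apart.

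All 10 genes passed the filter on low counts, and their smallest counts, from 622 for Ulk2 to 18748 for Sqstm1, gave a counting error of 4.01% to 0.73% of the value. With IL-3 the fold difference between replicates ran from 1.04 for Atg16l1 to 1.96 for Ulk2, and without it from 1.14 for Wipi2 to 1.61 for Map1lc3b. By comparison, the replicates lay over 4-fold apart for 14.5% of all genes tested with IL-3 and for 7.92% without it, and for 0 of the 10 in either group. These shares include genes with far fewer counts than the 10, and genes were not matched by level.

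The initiating kinases came first in the pathway. Ulk1, the serine/threonine kinase at the head of it (GRCm38 chr5:110784488-110810097, minus strand), had 71.2 and 60.2 CPM with IL-3 and 56.0 and 47.0 CPM without it. Both Abl1ko/IL3- libraries lay below both Abl1ko/IL3+ libraries, but with library size only the nearest values, 54.2 CPM with IL-3 and 54.7 CPM without it, overlapped. The difference was a log2 fold change of -0.35 (SE 0.31, 95% interval -1.16 to 0.46), with an adjusted p of 0.931 by edgeR.

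Ulk2, its close relative that can stand in for it in many cells (chr11:61775649-61855073, minus strand), had 23.3 and 11.9 CPM with IL-3 and 13.0 and 20.1 CPM without it. The highest and the lowest of its 4 values were both from Abl1ko/IL3+ cells. Its log2 fold change was -0.09 (SE 0.51, 95% interval -1.40 to 1.22; edgeR adjusted p 0.995), the widest interval of the 10 genes, and without Abl1ko/IL3+ replicate 1 it was 0.49 and without Abl1ko/IL3- replicate 1 it was 0.19.

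Ulk1 was the more abundant of the kinases in every library. Measured in FPKM (fragments per kilobase of exon and scaled to library depth, as the authors deposited it), the ratio of Ulk1 to Ulk2 was 2.81 and 4.66 in the Abl1ko/IL3+ libraries, against 3.97 and 2.15 in the Abl1ko/IL3- libraries. The groups overlapped, and the difference in the mean log2 ratio was -0.31, with an exact permutation p of 0.667 (two-sided, 3 ratios compared, and the smallest p that 2 against 2 libraries allow is 0.33).

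Becn1 encodes Beclin 1, the scaffold of the VPS34 lipid kinase complex and a binding partner of BCL2 (chr11:101285952-101302286, minus strand). It had 101.7 and 138.9 CPM with IL-3 and 224.2 and 180.3 CPM without it. It showed the largest positive log2 fold change of the 10 genes, 0.75 (SE 0.34, 95% interval -0.13 to 1.63), which is 1.68-fold, and its unadjusted and adjusted p were 0.081 and 0.855 by edgeR. Its log2 fold change ranged from 0.55 to 0.996 when any 1 library was left out.

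Of the exon bases of Becn1, 3104 are also exon of Cntd1 on the opposite strand, and whether the counting used strand is not stated. Cntd1 itself was counted only 22 and 10 times with IL-3, and 3 and 35 times when IL-3 was absent, whereas Becn1 had 6553 to 10730 counts. How many Becn1 reads were set aside or shared because of that overlap cannot be told from the table. Smaller overlaps with a gene on the opposite strand touch Map1lc3b (58 bases, Zcchc14), Gabarapl1 (570 bases, 1700101I11Rik) and Sqstm1 (580 bases, Mrnip).

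Wipi2, which binds the lipid that VPS34 makes and recruits ATG16L1 to it (chr5:142627698-142670588, plus strand), had 80.7 and 91.9 CPM with IL-3 and 81.8 and 71.7 CPM without it. The groups overlapped on this scale, whereas in FPKM both Abl1ko/IL3- values (6.63 and 6.29) lay below both Abl1ko/IL3+ values (7.36 and 6.98). The log2 fold change was -0.17 (SE 0.30, 95% interval -0.95 to 0.61; edgeR adjusted p 0.98).

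**Figure D2:**
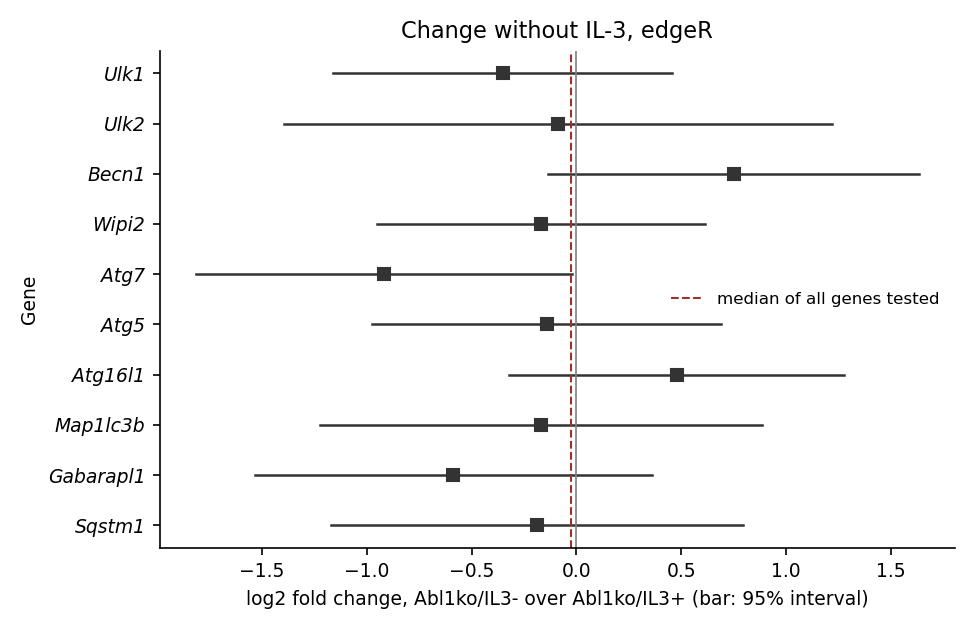
Log2 fold change of each gene without IL-3 (squares, Abl1ko/IL3- over Abl1ko/IL3+, 2 libraries each) with its 95% interval from the edgeR fit, beside 0 (grey line) and the median of all genes tested (dashed line, -0.03). Only the interval of Atg7 lies wholly on one side of 0, from -1.82 to -0.02, and it is not adjusted for the number of genes.

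The conjugation enzymes did not move in one direction. Atg7, the E1-like enzyme that activates both ATG12 and the LC3 and GABARAP proteins (chr6:114643097-114860614, plus strand), had 40.0 and 34.1 CPM with IL-3 and 17.5 and 21.7 CPM without it. The lower Abl1ko/IL3+ value stood above the higher Abl1ko/IL3- value by more than either group's replicates differed. Its log2 fold change of -0.92 (SE 0.35, 95% interval -1.82 to -0.02) was the largest negative one of the 10 genes and is 1.89-fold lower without IL-3.

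By edgeR the unadjusted p of Atg7 was 0.047 and the adjusted p 0.841, and the adjusted p was 0.508 by DESeq2. Over all the alternatives its adjusted p was never below 0.270. The log2 fold change stayed between -1.08 and -0.77 when any 1 library was left out.

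Atg5 receives ATG12 in that reaction (chr10:44268358-44364291, plus strand) and had 36.8 and 33.1 CPM with IL-3 and 29.5 and 33.8 CPM without it. The groups overlapped, at a log2 fold change of -0.14 (SE 0.32, 95% interval -0.98 to 0.69; edgeR adjusted p 0.980). Atg16l1, which carries the ATG12-ATG5 conjugate to the membrane (chr1:87755870-87792428, plus strand), had 34.1 and 32.8 CPM with IL-3 and 49.7 and 43.4 CPM without it. It was higher in both Abl1ko/IL3- libraries, at a log2 fold change of 0.48 (SE 0.31, 95% interval -0.32 to 1.28; edgeR adjusted p 0.898). Thus the enzyme, its substrate and the carrier of the conjugate had a negative, a near-zero and a positive estimate, of which none passed the adjusted threshold.

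The promoters of Atg5 and Atg7 are shown because they were the only 2 of 8 RefSeq promoter windows of these genes (250 bases before to 50 after the annotated start, GRCm38.p6) that hold CACGTG, the E-box core bound by factors of the TFEB family among others. The motif reads the same on both strands, and the capitals mark it. Becn1 and Atg16l1 had no record.
Atg5 chr10:44268305-44268350, plus strand: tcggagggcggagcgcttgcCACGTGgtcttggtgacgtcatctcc
Atg7 chr6:114670944-114670989, plus strand: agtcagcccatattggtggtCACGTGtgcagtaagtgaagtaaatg
Counted from the start site, the first base of the motif was at -14 in Atg5 and at -132 in Atg7. The RefSeq start used for Atg7 lies 27999 bases inside the gene as the table gives it. CACGTG was in 7.15% of all 32851 promoter windows. The longer TCACGTGA, also the same on both strands and containing CACGTG, was in 0 of the 8 and in 0.974% of all. Of the 2 genes with the motif, Atg7 had the largest negative estimate of the 10 and Atg5 one of the nearest to 0.

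Map1lc3b encodes LC3B, the lipid-conjugated protein that coats the membrane and is the usual marker of autophagosomes (chr8:121590361-121598760, plus strand). It had 128.7 and 85.6 CPM with IL-3 and 117.7 and 72.9 CPM without it. In each group replicate 1 was the higher library, and the replicates differed by more than the groups did. The estimate was a log2 fold change of -0.17 (SE 0.41, 95% interval -1.22 to 0.88; edgeR adjusted p 0.981), and it was 0.17 without Abl1ko/IL3+ replicate 1 and 0.14 without Abl1ko/IL3- replicate 2.

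Gabarapl1 belongs to the GABARAP branch of the same ATG8 family (chr6:129533160-129542346, plus strand) and had 187.4 and 131.0 CPM with IL-3 and 88.6 and 123.4 CPM without it. On this scale both Abl1ko/IL3- values lay below both Abl1ko/IL3+ values, but in FPKM the nearest values, 52.2 with IL-3 and 56.7 without it, overlapped, as they did with library size only. The log2 fold change was -0.59 (SE 0.37, 95% interval -1.54 to 0.36), with an adjusted p of 0.894 by edgeR. Leaving out 1 library at a time gave -0.84 to -0.29, the smallest difference being that without Abl1ko/IL3+ replicate 1.

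Sqstm1 encodes p62, the receptor that ties ubiquitinated cargo to LC3 and is itself degraded with it (chr11:50199366-50210827, minus strand). It had 619.4 and 403.9 CPM with IL-3 and 391.7 and 507.2 CPM without it. The groups overlapped, and the spread between the Abl1ko/IL3+ replicates exceeded the difference of the means. Without IL-3 the log2 fold change was -0.19 (SE 0.38, 95% interval -1.17 to 0.80; edgeR adjusted p 0.980), and without Abl1ko/IL3+ replicate 1 it was 0.17.

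**Figure D3:**
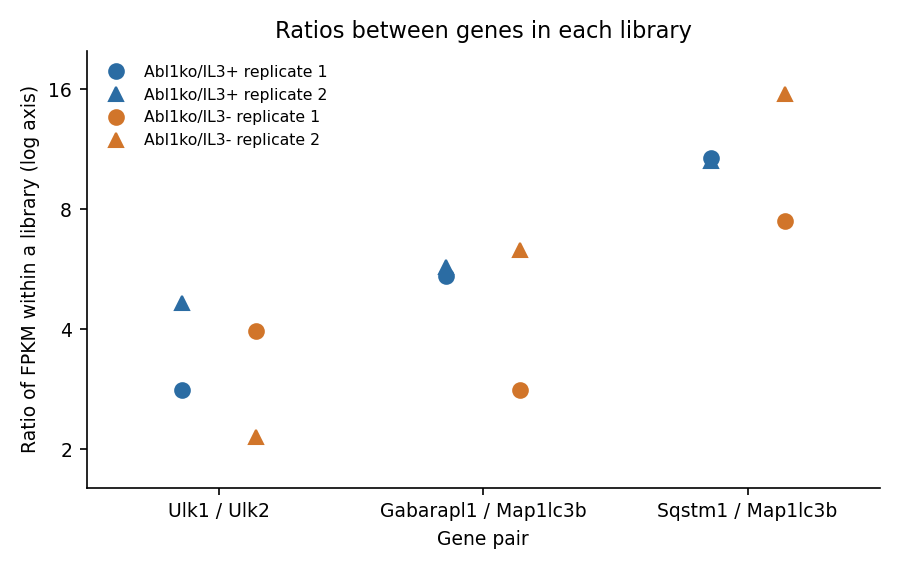
Ratio of the FPKM values of a pair of genes within each library (log axis), Abl1ko/IL3+ in blue and Abl1ko/IL3- in orange, circles for replicate 1 and triangles for replicate 2. For Gabarapl1 / Map1lc3b and Sqstm1 / Map1lc3b the blue points nearly coincide while the orange points lie on either side of them.

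A ratio of 2 genes within a library does not depend on the scaling between libraries. Its size depends on the length that each gene is divided by (described below), whereas its change between libraries does not. The ratio of Gabarapl1 to Map1lc3b was 5.44 and 5.72 in Abl1ko/IL3+ cells, against 2.81 and 6.32 in Abl1ko/IL3- cells. The ratio of Sqstm1 to Map1lc3b was 10.8 and 10.6 in Abl1ko/IL3+ cells, against 7.46 and 15.6 in Abl1ko/IL3- cells. Both ratios were nearly equal between the Abl1ko/IL3+ replicates, where all 3 genes were higher in replicate 1, and in both the Abl1ko/IL3- replicates fell on either side. The differences in the mean log2 ratio were -0.40 and 0.01, each with an exact permutation p of 1.

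Levels between genes were compared in FPKM, per length. With IL-3 the order of the mean FPKM was Sqstm1 at 137.0 ± 57.3 (SD, n = 2), Gabarapl1 at 70.9 ± 26.5, Becn1 at 14.8 ± 1.36, Atg5 at 13.2 ± 2.67, Map1lc3b at 12.8 ± 5.19, Ulk1 at 8.99 ± 2.21, Wipi2 at 7.17 ± 0.27, Atg7 at 4.71 ± 1.13, Atg16l1 at 3.06 ± 0.48 and Ulk2 at 2.67 ± 1.53. Neighbours whose library ranges overlapped, and whose order is therefore not settled by 2 libraries, were Becn1 and Atg5, Atg5 and Map1lc3b, Map1lc3b and Ulk1, and Atg16l1 and Ulk2. Without IL-3 the first 7 genes kept their places, Atg16l1 at 4.28 ± 0.18 FPKM stood above Atg7 at 2.51 ± 0.52 FPKM, and Ulk2 was last again at 2.48 ± 0.89 FPKM. There Becn1 at 25.4 ± 2.48 FPKM was apart from Atg5 at 12.0 ± 1.84 FPKM, and the neighbours that overlapped were Atg5 and Map1lc3b, and Atg7 and Ulk2. Among the 16535 genes tested, which excludes genes with low counts, the mean FPKM of the 10 over the 4 libraries ran from the percentile 44.7 (Ulk2) to the percentile 97.3 (Sqstm1).

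The FPKM values divide by a length in proportion to all exons of a gene joined together. With the counts in genes taken as the depth, the implied length was 1.13 times that union for each of the 10 genes. A factor shared by all 10 does not show that the length itself was longer, since it also depends on the depth used. The union is much longer than one messenger for some of them. It is 7517 bases for Map1lc3b, whose coding transcript with the longest coding part has 2633, and 9628 for Atg16l1, whose transcript picked in that way has 3102. Which transcript the cells used was not measured. Atg5 has 2352 for both. Per kilobase of that coding transcript, Map1lc3b stood at 40.7 CPM with IL-3 against 14.9 CPM for Atg5, although their FPKM values overlapped. On the same scale Gabarapl1 stood at 87.5 CPM and Sqstm1 at 251.2 CPM, so both remained above Map1lc3b.

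**Figure D4:**
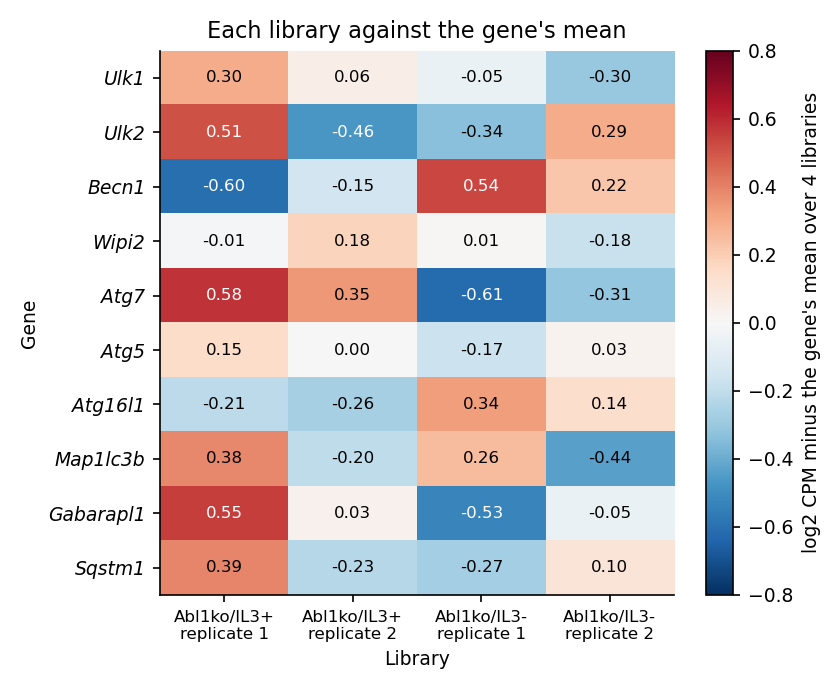
Log2 CPM of each gene in each library minus the mean of that gene over the 4 libraries, red where the library is higher. The first column is red for 7 of 10 genes and holds the strongest blue value of the Abl1ko/IL3+ libraries, -0.60 for Becn1.

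Abl1ko/IL3+ replicate 1 held the highest value of 7 of the 10 genes. The same library was highest for 30 of 54 other autophagy genes (55.6%), for 10 of 14 lysosome genes and for 31.8% of all genes tested. The median of the 10 genes' deviations from their own means was 0.34 on the log2 scale. In the other 3 libraries that median was -0.08, -0.11 and -0.01. Without this library the median log2 fold change of the 10 genes was 0.06 in place of -0.17, and 5 genes in place of 2 were higher without IL-3. Without Abl1ko/IL3+ replicate 2 the median was -0.44. The median over all genes tested was -0.03 with all libraries.

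Groups that did not overlap were found for 5 of the 10 genes, against 37.3% of all genes tested. Higher without IL-3 were 2 of the 10, against 19.4% of all genes, and lower were 3 of the 10, against 17.9%. Scaled by library size only, the groups did not overlap for 4 of the 10. The count was 9 without Abl1ko/IL3+ replicate 2, where 1 library was set against 2 and 81.2% of all genes did not overlap.

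The 8 lists of autophagy genes by step held 55 further genes, of which 54 were tested. None passed the adjusted threshold by edgeR, against 0% of all genes, and at an unadjusted p under 0.05 there were 3 of 54, against 5.91% of all genes: Uvrag, Atg4b and Tfeb, all lower without IL-3. DESeq2 called 2 of the 54, Uvrag and Tfeb, against 1.64% of all genes. By the sign of the estimate 17 were higher and 37 lower without IL-3, against 7946 higher and 8589 lower of all genes tested. Their median log2 fold change was -0.15, and 55.6% of them were highest in Abl1ko/IL3+ replicate 1, whose part in the signs here and by step was not tested.

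Uvrag, a Beclin 1 partner in the VPS34 complex of later steps, had 47.7 and 6.05 CPM with IL-3 and 2.19 and 2.998 CPM without it. One Abl1ko/IL3+ library was thus far above the other, and the log2 fold change of -3.37 (SE 1.05) had an adjusted p of 0.770 by edgeR and 0.023 by DESeq2. Atg4b, the protease that primes LC3 and GABARAP proteins for conjugation, had 50.4 and 67.9 CPM with IL-3 and 16.8 and 23.7 CPM without it, with no overlap. Its log2 fold change was -1.55 (SE 0.38), with an adjusted p of 0.727 by edgeR and 0.062 by DESeq2. Tfeb, a transcription factor of autophagy and lysosome genes, had 8.89 and 24.8 CPM with IL-3 and 1.38 and 3.03 CPM without it. Its log2 fold change was -2.93 (SE 0.76), with an adjusted p of 0.727 by edgeR and 0.009 by DESeq2.

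**Figure D5:**
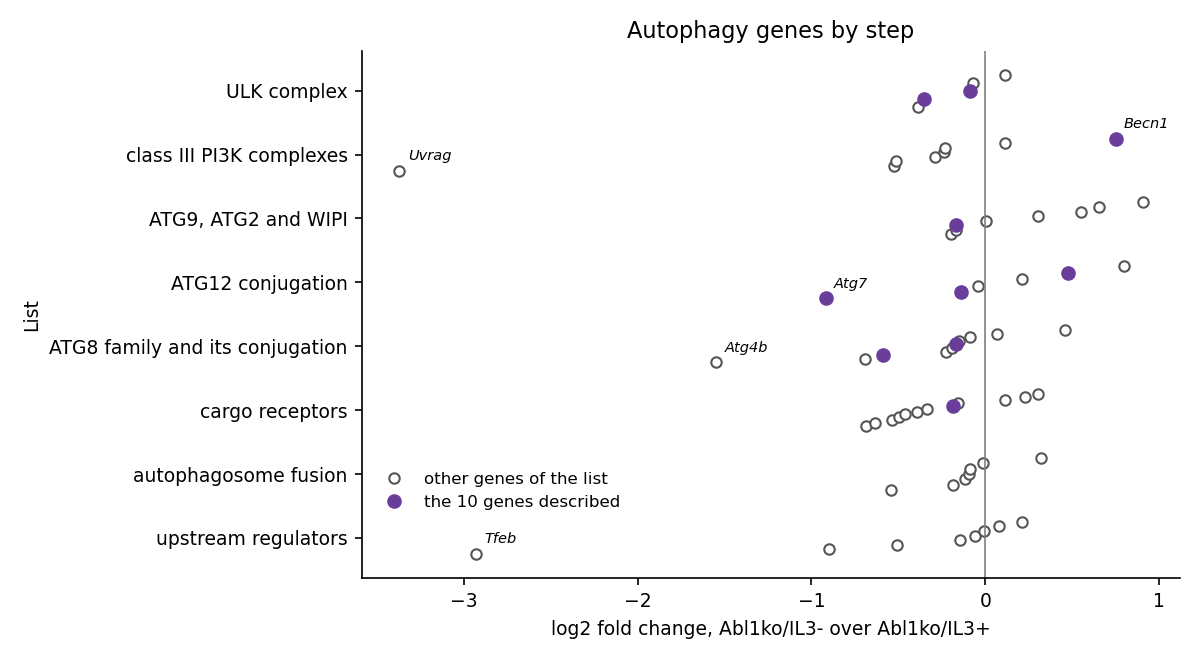
Log2 fold change without IL-3 of the tested genes of 8 autophagy lists, 1 row per list, with the 10 genes described here filled and the other genes open. Most points lie between -1 and 1, and Uvrag (-3.37), Tfeb (-2.93) and Atg4b (-1.55) lie below -1.

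By step, with the 10 genes included, the ULK complex had 1 gene higher and 4 lower (median log2 fold change -0.09). The class III PI3K complexes had 2 higher and 6 lower (median -0.26), and there Becn1 at 0.75 was the highest and its partner Uvrag at -3.37 the lowest. The list of ATG9 and ATG2 genes, which supply membrane and lipid, and of WIPI genes, the family of the lipid reader Wipi2, had 5 higher and 3 lower (median 0.16), with Wipi2 among the lower.

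ATG12 conjugation had 3 higher and 3 lower (median 0.08), spanning Atg7 at -0.92 to Atg10, the E2-like enzyme of that reaction, at 0.80. The ATG8 family and its conjugation had 2 higher and 8 lower (median -0.18), and the cargo receptors 3 higher and 9 lower (median -0.37). Autophagosome fusion had 1 higher and 6 lower (median -0.09), and the upstream regulators 2 higher and 6 lower of 8 tested (median -0.10). Of 14 lysosome genes, 4 were higher and 10 lower (median -0.20), and 0 passed the adjusted threshold by edgeR or an unadjusted p under 0.05.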

How the data were processed

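Total RNA of 4 libraries was depleted of ribosomal RNA and sequenced on an Illumina HiSeq instrument. Per the study's methods, the authors aligned reads to GRCm38 with Rsubread with gene-level counting by featureCounts, and both the raw counts and FPKM values were deposited. The submitters' processing notes name STAR, Cuffdiff and mm10 with no role. Versions, strand setting and the tool behind the FPKM are not given in the sources used here. Reads of overlapping genes may have been dropped by the counting.

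Counts were fitted with edgeR 4.0.16 in R 4.3.3 (filterByExpr, TMM, quasi-likelihood F test, two-sided, Benjamini-Hochberg over 16535 genes, threshold 0.05). Standard errors were the absolute log2 fold change over the square root of F. CPM are TMM-scaled, and totals ran from 48953174 to 60382588 counts. Ratios of deposited FPKM were tested by exact permutation over libraries. Scripts were tested on simulated data with 200 genes changed 8-fold. Recovery by edgeR was required only at a low simulated spread and not at the spread of these libraries. That test therefore does not check the lack of calls here. The 10 genes and all lists were chosen with earlier results of these data known. All 10 were named, with any other listed gene at an unadjusted p under 0.05 or at least 4-fold apart with no overlap. Outside that rule, Atg10 and the genes under other observations were named after their values were seen. Coordinates are GRCm38, and transcripts are GENCODE M21.

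Alternatives were DESeq2 1.42.0, library size only, no filter, 10 counts in every library, limma 3.58.1 on log2(FPKM + 1) and log2(FPKM + 0.1), the replicate block, leaving out each library and, added after seeing the data, the crossed pairing. Same-numbered libraries did not deviate together (correlation -0.19), so the block was not the main fit. Replicates differed by more than sampling noise. The 32Dcl3-Abl1/IL3+ group was not analysed here. One marker gene is not reported here.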

Additional observations from a re-analysis of the deposited data

How the results depend on the processing

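None of the 10 autophagy genes passed the adjusted threshold under any of the 12 alternatives, and Ulk1, Becn1, Atg5, Atg7, Atg16l1, Gabarapl1 and Wipi2 kept the sign of their log2 fold change in all 12. The exceptions in sign came from leaving out a library: Ulk2 ran from -0.49 to 0.49 (0.49 without Abl1ko/IL3+ replicate 1, 0.19 without Abl1ko/IL3- replicate 1), Map1lc3b from -0.55 to 0.17 (0.17 without Abl1ko/IL3+ replicate 1, 0.14 without Abl1ko/IL3- replicate 2) and Sqstm1 from -0.46 to 0.17 (0.17 without Abl1ko/IL3+ replicate 1). The median over the 10 genes ran from -0.44 (without Abl1ko/IL3+ replicate 2) to 0.059 (without Abl1ko/IL3+ replicate 1), and the number that did not overlap between the groups from 7 to 9 against 5, where 54.5% to 81.2% of all genes did not overlap because fewer libraries had to be apart. With library size only that number was 4, and in FPKM it was 5 with Wipi2 in place of Gabarapl1. Over all genes DESeq2 called 271 and edgeR 0 (978 at an unadjusted p under 0.05), the cause was not tested, and limma on FPKM called 0. DESeq2 called 2 of the other autophagy genes. Leaving out 1 library gave 0 to 22 genes, 22 without Abl1ko/IL3- replicate 1 and 1 without Abl1ko/IL3- replicate 2, where the lone library is assumed to vary like the other group.

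With the replicate block the median of the 10 genes was -0.17, 0 genes were called and 548 had an unadjusted p under 0.05. For the ratios the block could give no call, because so few libraries allow no exact p under 0.05. Without 1 library the differences in log2 ratio ran from -0.75 to 0.13 for Ulk1 to Ulk2, from -0.99 to 0.18 for Gabarapl1 to Map1lc3b and from -0.52 to 0.55 for Sqstm1 to Map1lc3b, so the sign of each depended on the library left out. The count of genes that do not overlap has no value with the replicate block. The crossed pairing gave 0 calls and 1136 genes at an unadjusted p under 0.05. Depth was not the limit for these genes, whose counting error was at most 4.01%. The 2 libraries a group and their spread limit what can be told: the 95% interval of the change spanned 0.45-fold to 1.37-fold for Ulk1 and 0.43-fold to 1.85-fold for Map1lc3b.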

Other observations

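Some autophagy genes outside the 10 differed more between libraries of one group than between the groups, as Ulk2, Map1lc3b and others of the 10 also did. The further genes named here were chosen after their values were seen. Over 4-fold apart between the Abl1ko/IL3+ replicates were 3 of 64 tested genes of the autophagy lists, against 14.5% of all genes tested, and between the Abl1ko/IL3- replicates 4 of 64, against 7.92%. Nbr1, a cargo receptor related to Sqstm1, had 126.1 and 13.6 CPM with IL-3 and 10.5 and 85.7 CPM without it, so it was high in 1 library of each group. Ncoa4, the receptor that delivers ferritin for degradation, had 163.6 and 210.3 CPM with IL-3 and 21.1 and 263.1 CPM without it. Prkaa1, a catalytic subunit of the AMPK energy sensor, had 78.1 and 59.4 CPM with IL-3 and 10.2 and 63.4 CPM without it. For Ncoa4 and Prkaa1 the low library was Abl1ko/IL3- replicate 1. Mitf, a relative of Tfeb, had 6.53 and 3.24 CPM with IL-3 and 6.06 and 0.81 CPM without it. The remaining 2 were Uvrag and Prkaa2, whose level was 0 to 0.28 CPM.

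Wdr45b, a relative of Wipi2, had 45.4 and 43.4 CPM with IL-3 and 72.4 and 67.2 CPM without it, a log2 fold change of 0.65 (SE 0.30, edgeR unadjusted p 0.080, adjusted p 0.855). The groups did not overlap for Wdr45b, as for 37.3% of all genes tested. Replicates of Wdr45b were within 1.08-fold of each other in both groups.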
